A study of Mus musculus with 9 samples.

Results

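The 10 genes described here belong to the transforming growth factor beta (TGF-beta) pathway and were followed in donor T cells after mouse hematopoietic stem cell transplantation. They are the ligand gene Tgfb1, the receptor genes Tgfbr1, Tgfbr2 and Tgfbr3, the signal transducer genes Smad2, Smad3 and Smad4, and the inhibitor genes Smad7, Ski and Skil. They are taken by gene symbol, with earlier results of these data known, and each matched 1 row of the 29229 genes counted. All 10 passed the filter on low counts. Splenic T cells, sorted as live CD3+ CD45.2+ cells, were sequenced as total RNA in 9 libraries, 3 for each of 3 groups. The naive group came from healthy C57BL/6 mice without a transplant. The syngeneic group held donor cells taken 7 days after transfer into B6.SJL-Ptprca Pepcb/BoyJ recipients (H-2b, CD45.1), which had received 9.5 Gy, 8500000 splenic T cells and 5000000 marrow cells. The allogeneic group held donor cells taken 7 days after transfer into CByJ.SJL(B6)-Ptprca/J recipients (H-2d, CD45.1), which had received 8 Gy, 1000000 splenic T cells and 5000000 marrow cells. Donors of T cells and marrow were C57BL/6 mice carrying CD45.2, and all mice were females of 8 to 12 weeks. The marrow was depleted of T cells with CD90.2 beads, and its progeny also carry CD45.2. Each transplant library pooled 2 to 4 recipients, so that a single mouse cannot be followed. Radiation dose and T-cell number differed between the transplant groups together with the recipient strain, and their parts in a difference between these groups cannot be told apart.

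TGF-beta is a secreted cytokine that restrains T-cell activation and supports regulatory and tissue-resident T cells. The latent ligand is freed from its propeptide and binds the type II receptor (Tgfbr2), which phosphorylates the type I receptor (Tgfbr1), while betaglycan (Tgfbr3) is a coreceptor that presents ligand. The type I receptor phosphorylates Smad2 and Smad3, which join Smad4 and enter the nucleus. Smad7 blocks the receptor, and the proteins Ski and SnoN (Skil) repress transcription by Smad complexes. Transcription of Smad7 and Skil is itself induced by the signal, as feedback. Phosphorylation and latent ligand are not seen by RNA counts.

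Promoter sequences are shown for 3 members whose RNA differed in its course between the groups: Tgfb1 (chr7:25686752-25687001, plus strand), Smad3 (chr9:63757995-63758244, minus strand) and Tgfbr2 (chr9:116175364-116175613, minus strand). They are the 250 bases before the RefSeq start, 5′ to 3′, in build GRCm38.p6. Capitals mark CAGAC or its reverse complement GTCTG, the short core that Smad3 and Smad4 bind.
Tgfb1: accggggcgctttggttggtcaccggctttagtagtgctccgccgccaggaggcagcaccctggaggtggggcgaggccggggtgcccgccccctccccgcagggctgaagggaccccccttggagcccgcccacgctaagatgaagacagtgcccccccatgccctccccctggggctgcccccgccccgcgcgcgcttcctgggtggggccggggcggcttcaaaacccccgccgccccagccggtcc
Smad3: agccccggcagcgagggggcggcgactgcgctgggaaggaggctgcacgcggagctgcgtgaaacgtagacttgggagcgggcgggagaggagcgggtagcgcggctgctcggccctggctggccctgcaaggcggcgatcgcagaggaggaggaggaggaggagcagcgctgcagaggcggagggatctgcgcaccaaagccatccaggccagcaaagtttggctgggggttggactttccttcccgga
Tgfbr2: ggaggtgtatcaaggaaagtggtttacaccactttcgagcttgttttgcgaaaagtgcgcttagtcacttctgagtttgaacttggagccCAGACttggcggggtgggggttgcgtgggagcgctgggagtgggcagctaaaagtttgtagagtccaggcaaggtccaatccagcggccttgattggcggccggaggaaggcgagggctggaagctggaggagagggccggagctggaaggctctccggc
A window was taken for 5 of the members, and 4 windows lay outside the GENCODE gene. These 4, of Tgfb1, Smad3, Tgfbr2 and Tgfbr1, were searched on both strands for 6 motifs, none of which contains another. Promoters of Smad7, Smad2, Smad4, Tgfbr3, Ski and Skil were not searched, and the motif results do not cover them. The core CAGAC occurred once in the Tgfbr2 window, at position -160, and in none of the Tgfb1, Smad3 and Tgfbr1 windows. It was present in 42.2% of all 32851 windows of this length. The palindromic Smad element GTCTAGAC was in 0.167% of all windows and in none of these 4. The GC box GGGCGG occurred 5 times for Tgfb1, 2 times each for Smad3 and Tgfbr1 and not for Tgfbr2, against 32.7% of all windows with a match. The GC-rich Smad element GGCGCC was found once for Tgfbr1 and not in the other windows, against 9.59% of all windows. The E-box CACGTG and the AP-1 site TGACTCA were in none of the 4, against 6.02% and 4.46% of all windows. The windows of Tgfb1, Smad3 and Tgfbr2 were 75.2%, 69.2% and 58.4% G or C, with a median of 52.4% over all windows.

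Total counts per library ran from 103953932 to 176678189. A pair of annotated RNAs, Gm26917 and Gm42418, read here as a ribosomal RNA locus, took 15.8 to 18.8% of naive, 19.4 to 22.4% of syngeneic and 7.87 to 17.2% of allogeneic counts, and the highest of the allogeneic shares was that of allogeneic library 1. Levels are counts per 1000000 counts of the library (CPM), and error is the SD over 3 libraries. The gene called highest in a marker list has the highest mean CPM over the 9 libraries, and need not lead within each group. T-cell markers (10 of 10 found, Thy1 highest) summed to 4962 to 5431 CPM in naive, 3592 to 4423 in syngeneic and 5329 to 5724 in allogeneic libraries, and none of them was at 0 throughout a group. Of the 10, 7 were lower and 0 higher in syngeneic than in naive libraries (median log2 fold change -0.60), 7 were higher and 0 lower in allogeneic than in syngeneic libraries (0.51), and 2 were higher and 1 lower in allogeneic than in naive libraries (-0.07). The count ratio of Cd8a to Cd4 was 0.948 ± 0.018 in the naive, 2.98 ± 0.38 in the syngeneic and 0.935 ± 0.19 in the allogeneic group. Erythroid markers (13 found of 14, Hbb-bs highest) summed to 27.6 to 28.2, 2314 to 5934 and 47.6 to 108.0 CPM in the same order of groups. Neutrophil markers (12 of 12, Ngp highest) summed to 4.86 to 9.28, 425.9 to 1416 and 649 to 1152 CPM, and macrophage and monocyte markers (15 of 15, Ly6c2 highest, Fcgr1 at 0 in naive) to 99.7 to 105.2, 347 to 500.1 and 340.1 to 400.5 CPM. The macrophage and monocyte markers were all 15 higher in syngeneic than in naive libraries, and 11 were lower and 2 higher in allogeneic than in syngeneic ones (median -2.58). B-cell markers (12 of 12) summed to 469 to 495 CPM, 536 to 962 CPM and 968 to 1505 CPM, most of it Ighm (461, 685 and 1127 CPM), while 8 of the 12 were lower and 1 higher in allogeneic than in syngeneic libraries (median -1.12). Dendritic cell markers (8 of 8, Itgax highest, Clec9a at 0 in naive) summed to 48.3 to 58.3, 28.1 to 44.6 and 226 to 291 CPM. Most of the allogeneic sum was Itgax (2.23, 13.2 and 197 CPM in the same order of groups). Of the 8, 6 were higher and 1 lower in syngeneic than in naive libraries (median 3.29), although the sum was lower. In allogeneic against syngeneic libraries 6 were lower and 2 higher (median -1.97). Natural killer cell markers (10 of 10, Klrd1 highest, Klra8 at 0 in allogeneic) summed to 40.02 to 43.7, 85.9 to 104.1 and 99.7 to 126.5 CPM, with 4 higher and 5 lower in allogeneic than in syngeneic libraries (median -0.63). These lists moved with the transplant groups, and their part in the results was not tested. In sorted bulk cells, fewer cells of a type and less RNA per cell cannot be told apart.

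In the libraries of either transplant group, RNA of all 3 receptors, of Smad4 and of the 3 inhibitors was lower than in naive libraries, and Smad3 RNA was higher. Against naive libraries, 7 of 10 members were lower and 1, Smad3, higher in syngeneic libraries, and the same 7 were lower and the same 1 higher in allogeneic libraries. Calls are Benjamini-Hochberg adjusted p-values under 0.05 from edgeR's quasi-likelihood test over 19609 genes. Of all genes tested, 41.9% were called in syngeneic against naive libraries (19.5% lower, 22.4% higher) and 57.7% in allogeneic against naive libraries (25.9% lower, 31.8% higher). The median log2 fold change of the members was -0.83 in the syngeneic and -1.07 in the allogeneic comparison, with 0.01 and -0.01 over all genes. Both comparisons share the naive libraries and are not independent of each other. Between the transplant groups, 4 members were lower and 2 higher in allogeneic libraries, where 45.0% of all genes were called (20.7% lower, 24.3% higher). That median was -0.20 for the members and -0.02 for all genes. Library ranges did not overlap for 9 members between syngeneic and naive libraries (8 lower, 1 higher), against 56.5% of all genes (31.1% lower, 25.4% higher). They did not overlap for 9 members between allogeneic and naive libraries (7 lower, 2 higher), against 65.1% of all genes (32.6% lower, 32.5% higher). Between the transplant groups that held for 6 members (4 lower, 2 higher), against 52.7% of all genes (25.3% lower, 27.4% higher).

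**Figure D1:**
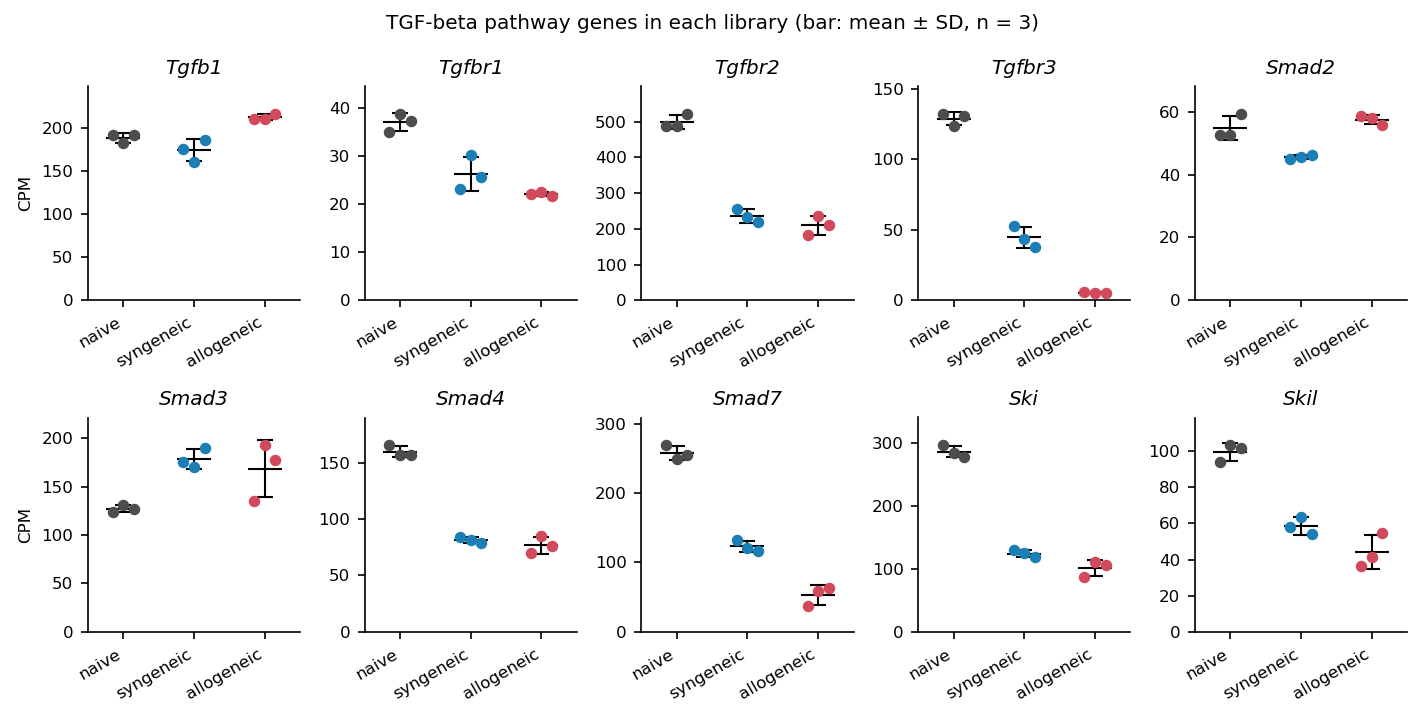
CPM of each of the 10 genes (vertical axes, from 0) in naive, syngeneic and allogeneic libraries. Points are libraries, and bars are the mean ± SD of 3. Tgfbr3 falls from 129 CPM in naive to 5.32 CPM in allogeneic libraries, Tgfb1 lies between 161 and 216 CPM, and Smad3 is the member that is higher in both transplant groups than in naive libraries.

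The coreceptor betaglycan had the largest difference of the members. Tgfbr3 (ENSMUSG00000029287, chromosome 5, 107106570 to 107289629 of GRCm38) stood at 132, 124 and 131 CPM in the naive libraries, 52.5, 43.8 and 38.0 CPM in the syngeneic and 5.61, 5.02 and 5.32 CPM in the allogeneic libraries. The 3 groups did not overlap, and the allogeneic libraries lay close together. Its log2 fold change was -3.06 ± 0.15 (SE) between allogeneic and syngeneic (edgeR adjusted p = 8.21e-08), -4.55 ± 0.16 between allogeneic and naive (edgeR adjusted p = 3.12e-09) and -1.48 ± 0.14 between syngeneic and naive libraries (edgeR adjusted p = 1.08e-05). Tgfbr3 shares 297 bp of exon with the counted gene Gm43422 on the same strand, and reads in that stretch may be split or dropped.

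The signalling receptors were lower after transplantation and did not pass the test between the transplant groups. Tgfbr2 (ENSMUSG00000032440, chromosome 9, 116084293 to 116175360), the ligand-binding kinase, stood at 489, 487 and 522 CPM in naive, 256, 232 and 219 CPM in syngeneic libraries and 182, 236 and 212 CPM in allogeneic ones. Naive libraries were apart from both transplant groups, which overlapped. The log2 fold change of Tgfbr2 against naive was -1.04 ± 0.11 in syngeneic (edgeR adjusted p = 1.94e-05) and -1.20 ± 0.11 in allogeneic libraries (edgeR adjusted p = 2.66e-06), and it was -0.16 ± 0.11 between allogeneic and syngeneic libraries (edgeR adjusted p = 0.235). Tgfbr1 (ENSMUSG00000007613, chromosome 4, 47353222 to 47414931), the kinase that acts on Smad2 and Smad3, was at 35.1, 38.8 and 37.2 CPM in naive, 23.1, 30.1 and 25.6 CPM in syngeneic libraries and 22.2, 22.4 and 21.7 CPM in allogeneic ones. All allogeneic values were below all syngeneic ones, by a narrow margin. Its log2 fold change was -0.46 ± 0.10 in syngeneic (edgeR adjusted p = 0.00301) and -0.69 ± 0.10 in allogeneic libraries (edgeR adjusted p = 0.000112) against naive. Between allogeneic and syngeneic libraries it was -0.23 ± 0.10 (edgeR adjusted p = 0.0793, and 0.0391 without allogeneic library 1).

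The ligand gene was the only member called higher in allogeneic than in syngeneic libraries besides Smad2, and it passed in neither comparison with naive libraries. Tgfb1 (ENSMUSG00000002603, chromosome 7, 25687002 to 25705077) stood at 192, 182 and 192 CPM in naive, 175, 161 and 186 CPM in syngeneic libraries and 211, 211 and 216 CPM in allogeneic ones. Allogeneic libraries were above all others, and naive and syngeneic libraries overlapped. The log2 fold change was 0.30 ± 0.09 between allogeneic and syngeneic libraries (edgeR adjusted p = 0.0193), a call lost without allogeneic library 1 (edgeR adjusted p = 0.0534) or syngeneic library 2 (0.0925). It was 0.22 ± 0.09 between allogeneic and naive (edgeR adjusted p = 0.0546, with 0.0363 when the replicate number was a block and 0.0453 without syngeneic library 1) and -0.08 ± 0.09 between syngeneic and naive libraries (edgeR adjusted p = 0.534). Platelets are rich in this cytokine, and of the platelet markers Pf4 was at 0.037, 0.25 and 0.11 CPM in naive, syngeneic and allogeneic libraries. The 12 megakaryocyte and platelet markers summed to 153 to 172 CPM in naive, 100.0 to 105.2 CPM in syngeneic libraries and 157 to 263 CPM in allogeneic ones. Most of that sum was Itgb3 (161, 91.1 and 218 CPM in the same order), an integrin that T cells can also express, and Treml1 was at 0 in allogeneic and Gp6 at 0 in naive libraries. Of the 9 tested, 5 were higher and 1 lower in syngeneic than in naive libraries (median log2 fold change 2.76), and 3 were lower and 1 higher in allogeneic than in syngeneic libraries (-1.09). The part of these markers in the Tgfb1 values was not tested.

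**Figure D2:**
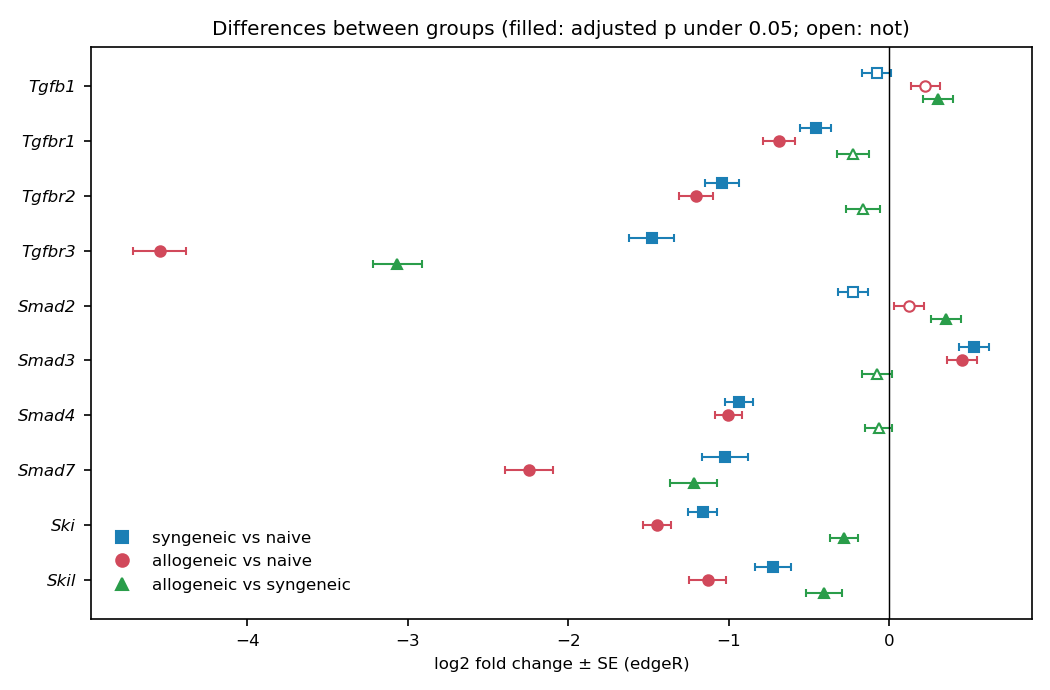
Log2 fold change (horizontal axis, with the SE as bars) of each gene in the 3 comparisons. Filled symbols passed an edgeR adjusted p of 0.05. Tgfbr3 and Smad7 lie farthest to the left in allogeneic against naive libraries, at -4.55 and -2.24, and Smad3 lies to the right of 0 in both comparisons with naive libraries.

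The 2 receptor-activated Smads took different courses. Smad3 (ENSMUSG00000032402, chromosome 9, 63646767 to 63757994) stood at 124, 131 and 127 CPM in naive, 175, 170.1 and 190.0 CPM in syngeneic libraries and 136, 193 and 178 CPM in allogeneic ones. Every transplant library was above every naive one, and allogeneic library 1 was the lowest of the transplant libraries. Its log2 fold change against naive was 0.53 ± 0.09 in syngeneic (edgeR adjusted p = 0.000933) and 0.45 ± 0.09 in allogeneic libraries (edgeR adjusted p = 0.00159). Between allogeneic and syngeneic libraries it was -0.08 ± 0.09 (edgeR adjusted p = 0.534) and turned to 0.0142 without allogeneic library 1. Smad2 (ENSMUSG00000024563, chromosome 18) was at 52.6, 52.5 and 59.3 CPM in naive, 44.9, 45.5 and 46.4 CPM in syngeneic libraries and 58.6, 58.0 and 55.8 CPM in allogeneic ones. Syngeneic libraries were the lowest, with no overlap with either other group. The difference between allogeneic and syngeneic libraries was called (log2 fold change 0.35 ± 0.09, edgeR adjusted p = 0.0105). That between syngeneic and naive libraries was not (-0.23 ± 0.09, edgeR adjusted p = 0.0727), but passed in a fit of those groups alone (0.0214) and with library sizes alone as scaling (0.0128). In the model of all groups it passed as well without allogeneic library 1 or 3 (0.0424 and 0.0391). Allogeneic and naive libraries overlapped in Smad2 (0.12 ± 0.09, edgeR adjusted p = 0.275).

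Smad4, the partner that receptor-activated Smads share, was lower after either transplant. Smad4 (ENSMUSG00000024515, chromosome 18) stood at 165, 157 and 157 CPM in naive, 84.0, 81.0 and 78.4 CPM in syngeneic libraries and 69.9, 84.8 and 76.0 CPM in allogeneic ones. No transplant library reached the naive range, and the transplant groups overlapped. The log2 fold change against naive was -0.94 ± 0.09 in syngeneic (edgeR adjusted p = 7.76e-06) and -1.00 ± 0.09 in allogeneic libraries (edgeR adjusted p = 1.82e-06). It was -0.07 ± 0.09 between allogeneic and syngeneic libraries (edgeR adjusted p = 0.538) and turned to 0.0104 without syngeneic library 1.

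All 3 inhibitor genes were highest in naive libraries and lower in allogeneic than in syngeneic ones. Smad7 (ENSMUSG00000025880, chromosome 18), the feedback inhibitor of the receptor, stood at 269, 249 and 255 CPM in naive, 132, 121 and 117 CPM in syngeneic libraries and 36.6, 59.2 and 63.6 CPM in allogeneic ones. No 2 groups overlapped, and allogeneic library 1 was the lowest. The log2 fold change of Smad7 was -1.02 ± 0.14 between syngeneic and naive (edgeR adjusted p = 0.000174), -2.24 ± 0.15 between allogeneic and naive (edgeR adjusted p = 2.11e-07) and -1.22 ± 0.14 between allogeneic and syngeneic libraries (edgeR adjusted p = 4.94e-05). Between the transplant groups it was -1.05 without allogeneic library 1, still called.

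Ski (ENSMUSG00000029050, chromosome 4, 155154075 to 155222592), a nuclear corepressor of Smad complexes, was at 296, 285 and 278 CPM in naive, 130, 125 and 119 CPM in syngeneic libraries and 87.5, 111 and 106.0 CPM in allogeneic ones. The groups did not overlap, and the gap between the transplant groups was small. Its log2 fold change was -1.16 ± 0.09 in syngeneic (edgeR adjusted p = 1.75e-06) and -1.45 ± 0.09 in allogeneic libraries (edgeR adjusted p = 1.12e-07) against naive. Between allogeneic and syngeneic libraries it was -0.28 ± 0.09 (edgeR adjusted p = 0.0208), a call lost without allogeneic library 1 (0.064) or syngeneic library 1 (0.0781). Skil (ENSMUSG00000027660, chromosome 3, 31095058 to 31122577), which encodes the related corepressor SnoN, was at 93.9, 103 and 102 CPM in naive, 58.1, 63.7 and 53.9 CPM in syngeneic libraries and 36.3, 41.4 and 54.5 CPM in allogeneic ones. Allogeneic library 3 lay within the syngeneic range. Skil differed from naive by -0.73 ± 0.11 in syngeneic (edgeR adjusted p = 0.000352) and by -1.13 ± 0.11 in allogeneic libraries (edgeR adjusted p = 6.52e-06) on the log2 scale. Between the transplant groups the log2 fold change was -0.41 ± 0.11 (edgeR adjusted p = 0.0126, and 0.0542 without allogeneic library 2).

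Divided by exon length (RPKM, here CPM per kilobase of the merged exons of a gene), the order of the members changed after transplantation. In naive libraries it ran from Tgfbr2 (61.0 ± 2.4 RPKM) through Smad7 (57.0 ± 2.2), Ski (51.5 ± 1.7), Smad4 (42.99 ± 1.3), Tgfb1 (37.5 ± 1.1), Smad3 (23.0 ± 0.67), Tgfbr3 (19.7 ± 0.68), Skil (10.3 ± 0.52) and Smad2 (6.24 ± 0.45) to Tgfbr1 (5.67 ± 0.28). No neighbours in that order overlapped in the naive libraries. In syngeneic libraries Tgfb1 (34.5 ± 2.5 RPKM), Smad3 (32.2 ± 1.9), Tgfbr2 (28.8 ± 2.3) and Smad7 (27.3 ± 1.7) led, each overlapping the next. Ski (22.3 ± 0.97) and Smad4 (21.9 ± 0.76) followed and overlapped, as did Tgfbr3 (6.84 ± 1.1) and Skil (6.04 ± 0.51), before Smad2 (5.19 ± 0.085) and Tgfbr1 (4.02 ± 0.55). In allogeneic libraries Tgfb1 (42.1 ± 0.63 RPKM) stood above all other members. Smad3 (30.5 ± 5.3), Tgfbr2 (25.6 ± 3.3), Smad4 (20.7 ± 2.0) and Ski (18.3 ± 2.2) came next, each overlapping its neighbour. Smad7 (11.8 ± 3.2), Smad2 (6.54 ± 0.16), Skil (4.55 ± 0.97), Tgfbr1 (3.38 ± 0.059) and Tgfbr3 (0.812 ± 0.046) were each separate from the next. The lowest member was thus Tgfbr1 in naive and syngeneic libraries and Tgfbr3 in allogeneic libraries.

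**Figure D3:**
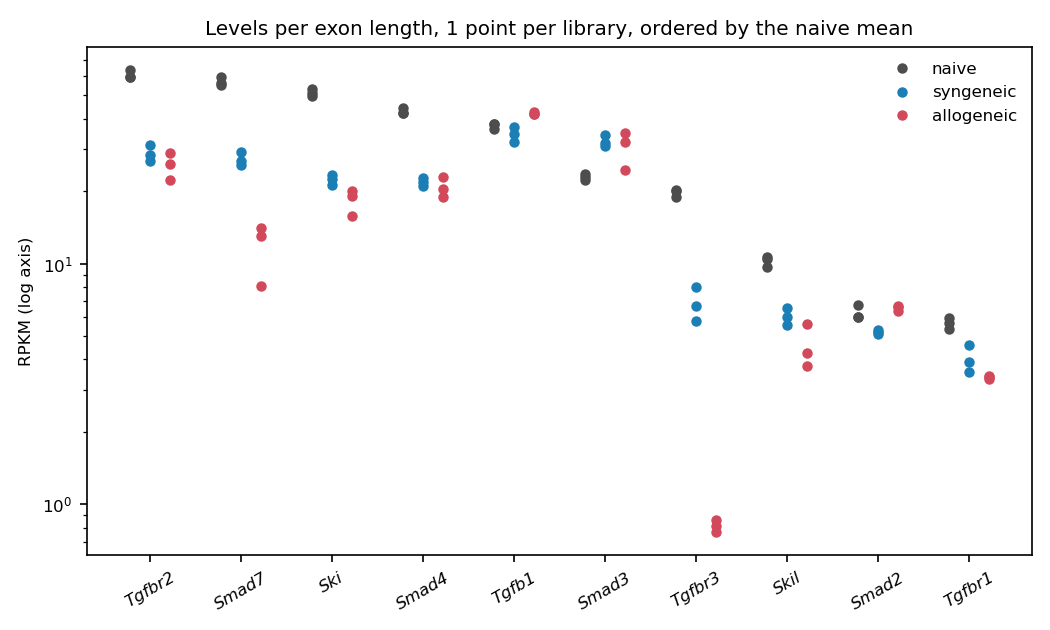
RPKM of each gene on a log axis, with 1 point per library and genes ordered by their naive mean. The naive points step down without overlap, and the allogeneic points of Tgfbr3, near 0.8 RPKM, are the lowest of the plot.

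Ratios of related members within a library do not depend on how libraries are scaled. Smad3 had 2.33 ± 0.18 counts per Smad2 count in the naive, 3.91 ± 0.18 in the syngeneic and 2.94 ± 0.54 in the allogeneic group. The syngeneic ratios (3.91, 3.74 and 4.10) were above all others, and that of allogeneic library 1 (2.32) was within the naive range. Skil had 0.348 ± 0.027 counts per Ski count in the naive, 0.471 ± 0.034 in the syngeneic and 0.434 ± 0.073 in the allogeneic group. Tgfbr2 had 13.5 ± 0.81 counts per Tgfbr1 count in the naive, 9.10 ± 1.8 in the syngeneic and 9.50 ± 1.2 in the allogeneic group. Naive libraries thus did not overlap with either transplant group in the last 2 ratios, in which the transplant groups overlapped each other. The 9 differences in mean log2 ratio were each given a 2-sided exact permutation test, whose smallest p with 3 libraries a side is 0.1. The 6 differences without overlap gave exact p = 0.1 (0.15 after Benjamini-Hochberg adjustment over the 9), and the others gave exact p = 0.3 to 0.8. The Cd8a to Cd4 ratio was also highest in syngeneic libraries, and its part in the Smad3 to Smad2 ratio was not tested.

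**Figure D4:**
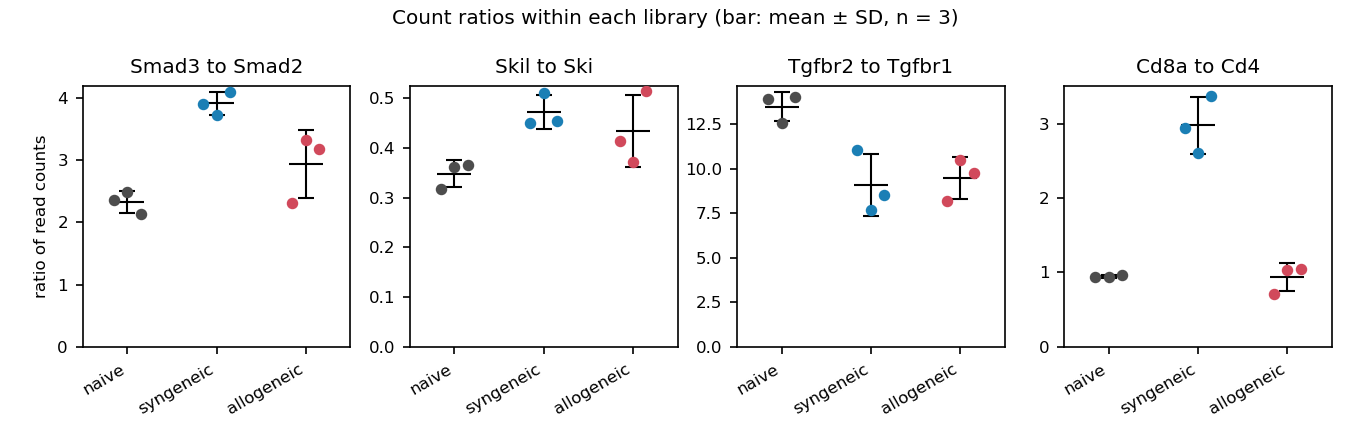
Ratio of read counts within each library (vertical axes, from 0) for 3 pairs of members and for the coreceptor genes Cd8a and Cd4. Points are libraries and bars the mean ± SD of 3. Smad3 to Smad2 and Cd8a to Cd4 are highest in the syngeneic libraries, at 3.91 and 2.98.

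Other genes of ligand supply and activation went in both directions. Of 22 listed, 19 were tested, and Mmp2, Dcn and Inhbb were too low to test. Between allogeneic and syngeneic libraries 6 were higher and 5 lower, against naive 9 were higher and 4 lower in allogeneic libraries, and 7 were higher and 3 lower in syngeneic libraries. The median log2 fold changes were -0.08, 0.24 and 0.32, with -0.02, -0.01 and 0.01 over all genes. The share called was 57.9%, 68.4% and 52.6%, against 45.0%, 57.7% and 41.9% of all genes tested. Ltbp4 and Ltbp3, which encode latent TGF-beta binding proteins, were at 2.60 ± 1.3 and 1.47 ± 0.60 CPM in allogeneic and 0.277 ± 0.066 and 0.234 ± 0.038 CPM in syngeneic libraries (log2 fold changes 3.22 ± 0.41 and 2.65 ± 0.41). Itgb8, the integrin beta 8 chain that activates latent TGF-beta, fell from 4.15 ± 1.0 CPM in naive to 1.18 ± 0.55 CPM in syngeneic libraries and 0.334 ± 0.1 CPM in allogeneic ones. Thbs1 (thrombospondin 1) and Mmp9 (a gelatinase), both able to activate the latent cytokine, were called higher in each transplant group than in naive libraries. Thbs1 was at 0.331 ± 0.065, 3.38 ± 2.3 and 3.17 ± 1.6 CPM and Mmp9 at 3.77 ± 0.80, 34.0 ± 16 and 30.3 ± 8.2 CPM in the order naive, syngeneic, allogeneic. Both are also made by myeloid cells, whose marker sums, given above, moved with them, and the part of those cells was not tested. A further 3 genes were named after their values were seen. The isoform gene Tgfb3 was at 6.93 ± 0.92 CPM in allogeneic, 2.65 ± 0.42 CPM in syngeneic and 2.84 ± 0.71 CPM in naive libraries, and Tgfb2 at 0.079 ± 0.059, 0.462 ± 0.14 and 0.424 ± 0.17 CPM. Furin, the protease that cleaves the TGF-beta precursor, rose from 88.7 ± 6.2 CPM in syngeneic to 294 ± 44 CPM in allogeneic libraries (log2 fold change 1.74 ± 0.08, edgeR adjusted p = 6.73e-08).

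Among 13 tested receptors and coreceptors of the wider family, 4 were higher and 6 lower in allogeneic than in syngeneic libraries. Against naive, 4 were higher and 6 lower in allogeneic and 2 higher and 4 lower in syngeneic libraries (medians -0.23, -0.20 and -0.22). The share called was 76.9%, 76.9% and 46.2%, against 45.0%, 57.7% and 41.9% of all genes tested. Acvrl1, which encodes the type I receptor ALK1, fell from 30.01 ± 2.5 CPM in naive and 17.1 ± 1.7 CPM in syngeneic to 1.62 ± 0.64 CPM in allogeneic libraries (log2 fold change against syngeneic -3.41 ± 0.22, edgeR adjusted p = 5.24e-07). Nrp1, a coreceptor for several ligands that is also on the regulatory T-cell marker list, was at 50.1 ± 8.0, 26.1 ± 5.1 and 196 ± 38 CPM in the same order. Cd109, a surface inhibitor of TGF-beta receptors, rose from 0.301 ± 0.13 CPM in naive to 1.19 ± 0.25 CPM in syngeneic libraries and 5.80 ± 2.2 CPM in allogeneic ones. Acvr1, a type I receptor of the bone morphogenetic protein branch, was at 0.436 ± 0.042, 1.33 ± 0.30 and 1.73 ± 0.36 CPM, higher than naive in both transplant groups. The regulatory T-cell markers (8 of 8) summed to 347 to 411.5 CPM in naive, 176 to 255 CPM in syngeneic libraries and 540 to 683 CPM in allogeneic ones. Il2ra, the highest of them by the mean over the 9 libraries, was at 57.0, 41.25 and 186 CPM in the same order. It was not the highest in each group, with Nrp1 above it in allogeneic and Foxp3 in naive libraries. Of the 8, 4 were higher and 4 lower in allogeneic than in naive libraries (median log2 fold change -0.02). In allogeneic against syngeneic libraries 4 were higher and 1 lower (0.70), and in syngeneic against naive libraries 0 were higher and 6 lower (-0.88). Foxp3, which defines the regulatory T-cell lineage, was at 61.1 ± 6.2 CPM in naive, 26.9 ± 5.3 CPM in syngeneic libraries and 27.7 ± 6.4 CPM in allogeneic ones.

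Of the Smads of the bone morphogenetic protein branch, Smad1 stood at 30.7, 29.3 and 32.7 CPM in naive, 22.3, 18.7 and 21.99 CPM in syngeneic libraries and 7.37, 6.96 and 6.63 CPM in allogeneic ones, with a log2 fold change of -1.57 ± 0.13 between the transplant groups (edgeR adjusted p = 3.77e-06). Its relative Smad5 was at 60.7 ± 2.8, 31.8 ± 1.4 and 33.0 ± 6.0 CPM, lower than naive in both transplant groups. Smad9 passed in no comparison, and Smad6 was too low to test.

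Of 27 regulators and cofactors of Smads, 11 were lower and 5 higher in allogeneic than in syngeneic libraries, 16 lower and 5 higher in allogeneic than in naive libraries, and 11 lower and 4 higher in syngeneic than in naive libraries (medians -0.14, -0.37 and -0.17). The share called was 59.3%, 77.8% and 55.6%, against 45.0%, 57.7% and 41.9% of all genes tested. The 5 higher between the transplant groups became 3 without allogeneic library 2 and 2 without syngeneic library 2 or 3. Nedd4l, a ubiquitin ligase that acts on activated Smad2 and Smad3, was at 47.3, 43.7 and 44.4 CPM in naive, 30.3, 29.1 and 30.1 CPM in syngeneic libraries and 3.03, 3.24 and 5.03 CPM in allogeneic ones. Its groups did not overlap, and the log2 fold change between the transplant groups was -2.99 ± 0.15 (edgeR adjusted p = 9.15e-08). Pmepa1 and Ldlrad4, related membrane proteins that TGF-beta induces and that limit Smad phosphorylation, were called lower in all 3 comparisons, like Smad7. Pmepa1 was at 17.4 ± 1.4 CPM in naive, 7.57 ± 1.9 CPM in syngeneic libraries and 2.01 ± 0.26 CPM in allogeneic ones, and Ldlrad4 at 28.4 ± 2.7, 12.2 ± 1.6 and 7.88 ± 1.8 CPM. Tgif2, a homeodomain corepressor of Smads, was at 18.2 ± 1.1 CPM in naive and 18.02 ± 1.3 CPM in syngeneic libraries and at 7.04 ± 0.99 CPM in allogeneic libraries (log2 fold change against syngeneic -1.35 ± 0.12, edgeR adjusted p = 4.44e-06).

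Of 14 genes of signalling beside the Smads, 6 were higher and 3 lower in allogeneic than in syngeneic libraries, 4 higher and 4 lower in allogeneic than in naive libraries, and 2 higher and 1 lower in syngeneic than in naive libraries (medians 0.09, 0.09 and -0.05). The share called was 64.3%, 57.1% and 21.4%, against 45.0%, 57.7% and 41.9% of all genes tested. Between the transplant groups the 3 lower became 1 without allogeneic library 1 or syngeneic library 3, and between allogeneic and naive libraries the 4 lower became 2 without naive library 1 and 1 without naive library 3. Between syngeneic and naive libraries the 2 higher became 1 without any of naive libraries 1 to 3 or syngeneic libraries 1 and 3, and with no filter on low counts. The 1 lower became 2 to 3 in 4 alternatives. Among these it became 2 without naive library 2 or syngeneic library 1, and 3 with library sizes alone as scaling. Mapk8, which encodes the kinase JNK1, was at 9.88 ± 0.63 CPM in allogeneic libraries and 17.2 ± 1.6 CPM in syngeneic ones. Tab2, an adaptor of the kinase TAK1, was at 203 ± 27 and 139 ± 11 CPM, and the adaptor Shc1 at 149 ± 2.1 and 106 ± 9.3 CPM. Tab3, a relative of Tab2, reached 32.0 ± 8.9 CPM in syngeneic against 21.2 ± 1.5 CPM in naive libraries (log2 fold change 0.63 ± 0.15, edgeR adjusted p = 0.00554). Pard6a, a polarity protein that the type II receptor phosphorylates, was at 6.58, 4.96 and 3.74 CPM in allogeneic, syngeneic and naive libraries. Its call between syngeneic and naive libraries (edgeR adjusted p = 0.0297) was lost in turn without naive library 1 (0.0947), 2 (0.0812) or 3 (0.0522) and without syngeneic library 1 (0.0854) or 3 (0.0989). That call was also lost with no filter on low counts (0.0653).

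**Figure D5:**
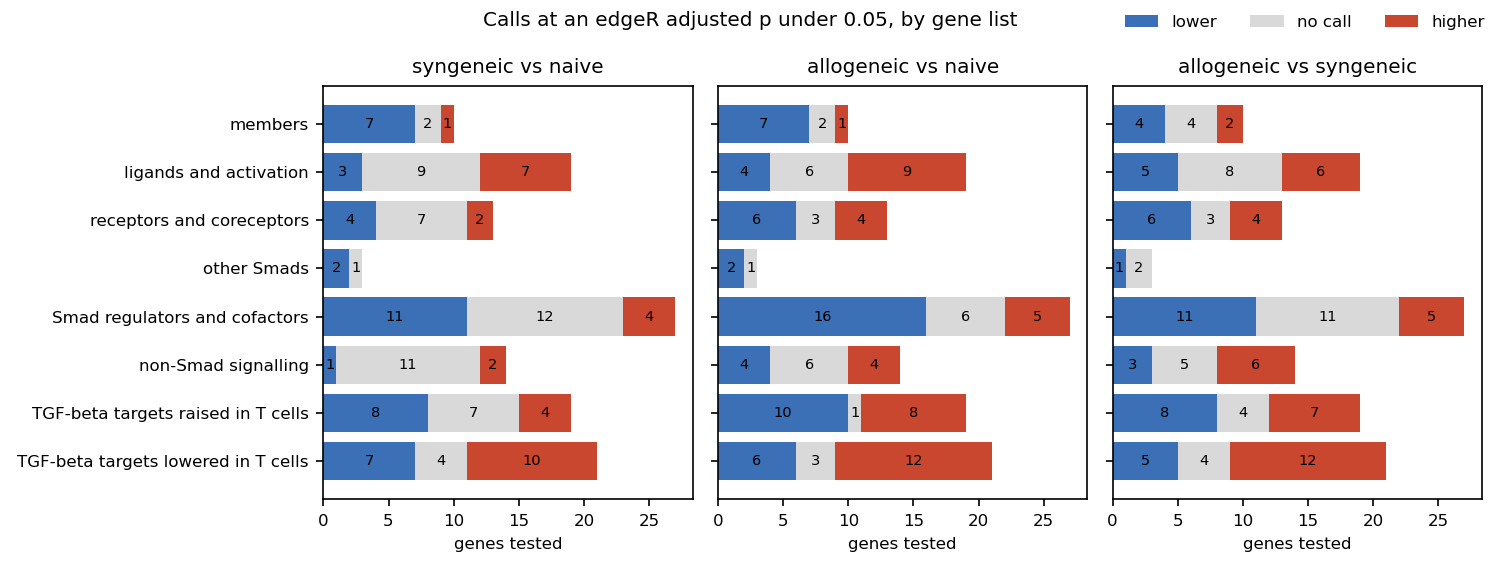
Number of genes (horizontal axes) lower, not called or higher at an edgeR adjusted p under 0.05 in each comparison, for the 10 members and for 7 further lists. The members and the Smad regulators, among others, have more genes lower than higher in all 3 comparisons, for the regulators 11 against 4, 16 against 5 and 11 against 5.

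Genes that TGF-beta is known to raise or lower in T cells were counted as well, from lists drawn up from general knowledge. Many of them answer to other signals too. Of 19 tested genes known to be raised, 7 were higher and 8 lower in allogeneic than in syngeneic libraries, 8 higher and 10 lower in allogeneic than in naive libraries, and 4 higher and 8 lower in syngeneic than in naive libraries (medians 0.06, -0.48 and -0.25). The share called was 78.9%, 94.7% and 63.2%, against 45.0%, 57.7% and 41.9% of all genes tested. The 4 higher in syngeneic than in naive libraries became 2 without syngeneic library 3. Itgae, the integrin CD103 of resident T cells and named after its values were seen, fell from 93.5 ± 10 CPM in naive to 31.3 ± 6.6 CPM in syngeneic libraries and 12.2 ± 1.6 CPM in allogeneic ones. Entpd1 (the ectoenzyme CD39), Ctla4 (an inhibitory receptor) and Ccr8 (a chemokine receptor) were higher in allogeneic than in syngeneic libraries, at 80.6 ± 9.5 against 11.5 ± 3.0 CPM, 78.6 ± 7.8 against 17.0 ± 5.8 CPM and 11.4 ± 2.4 against 2.65 ± 0.74 CPM. Cdkn1a, which encodes the cell cycle inhibitor p21, rose from 0.312 ± 0.071 CPM in naive to 5.68 ± 1.7 CPM in syngeneic libraries and 12.5 ± 0.43 CPM in allogeneic ones. Tgfbi, a matrix protein also abundant in monocytes, was at 0.098 ± 0.041, 13.4 ± 7.8 and 5.62 ± 0.46 CPM. Of the 15 macrophage and monocyte markers, 15 were higher in syngeneic and 12 in allogeneic than in naive libraries, and 11 were lower in allogeneic than in syngeneic libraries. The mean of Tgfbi was lower in allogeneic than in syngeneic libraries too, but these groups overlapped. Its values were 4.65, 16.1 and 19.45 CPM in syngeneic and 6.15, 5.37 and 5.34 CPM in allogeneic libraries. The part of the macrophage and monocyte markers in the Tgfbi values was not tested.

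Of 21 tested genes known to be lowered by TGF-beta, 12 were higher and 5 lower in allogeneic than in syngeneic libraries, 12 higher and 6 lower in allogeneic than in naive libraries, and 10 higher and 7 lower in syngeneic than in naive libraries (medians 1.81, 2.47 and 0.45). The share called was 81.0%, 85.7% and 81.0%, against 45.0%, 57.7% and 41.9% of all genes tested. The granule proteases Gzma and Gzmb, which natural killer cells also make, stood at 1196 ± 161 and 1540 ± 93 CPM in allogeneic, 21.4 ± 5.6 and 93.0 ± 25 CPM in syngeneic and 3.84 ± 1.2 and 4.58 ± 1.2 CPM in naive libraries. The type 2 cytokine genes Il13 and Il4 were at 8.40 ± 1.0 and 3.99 ± 0.48 CPM in allogeneic against 0.135 ± 0.065 and 0.091 ± 0.063 CPM in syngeneic libraries.

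The genes whose course over the 9 libraries lay closest to that of a member were found by the root mean square difference of log2 CPM, each gene centred on its own mean. For Tgfbr3 they were Ttc28 (0.19), Cnksr3 (0.23) and Lrig1 (0.24). Lrig1, a membrane regulator of growth factor receptors, was at 73.0 ± 2.6 CPM in naive, 25.9 ± 2.4 CPM in syngeneic libraries and 3.07 ± 0.93 CPM in allogeneic ones. For Tgfbr2 they were Il16 (0.06), Rcan3 (0.07) and Zfp418 (0.07), and Il16, a cytokine precursor of lymphocytes, was at 571 ± 27, 274 ± 23 and 233 ± 19 CPM. Skil was closest to Tle1 (0.09), Rhoh (0.10) and Klf7 (0.10), of which Rhoh encodes a GTPase of T-cell receptor signalling. Smad3 was closest to Eif3a, Ubap2 and Smarca4 (0.07 each), and Tgfb1 to Tmem248, Phf7 and Lzic (0.04, 0.04 and 0.05).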

How the data were processed

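The deposited table holds whole-number counts for each Ensembl gene in 9 libraries, made with a stranded kit per the labels' protocols. The submitters' processing notes list HTSeq 0.6.1 and TopHat2 2.0.13, with Bowtie2 2.2.1, for build GRCm38, and FastQC 0.11.3. Of the counting, annotation release, strand setting and filters were not given in the sources used here, so reads of overlapping genes may be mixed. Libraries were grouped by the transplant type of their label. The strain tag names 1 recipient strain for all libraries, against the protocols, and was not used. Symbols, coordinates and exon lengths came from GENCODE M21 (29014 of 29229 identifiers matched).

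CPM used column totals. Genes were filtered with filterByExpr and tested with edgeR 4.0.16 (TMM scaling, quasi-likelihood, 1 model of all groups), with Benjamini-Hochberg adjustment over 19609 genes. Promoters were searched for 6 motifs, all reported. The test was also run on simulated counts, with a small set of genes raised in the allogeneic group only. These data differ in far more genes and in both directions, and no result here rests on that run. Log2 fold changes rest on TMM scaling and differ slightly from ratios of CPM. The SE is the log2 fold change divided by the root of the F statistic. Likeness used log2 CPM with a prior count of 2, over protein-coding genes. Alternatives were DESeq2 1.42.0, limma-voom (limma 3.58.1), scaling by library size, no filter, a replicate block, fits of only the groups compared, no ribosomal RNA locus, and each library left out.

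Members, lists and tests were chosen with earlier results of these data known. All members are described. Of each other list, the called genes with the largest change at 1 CPM or more in some group are named (3 between the transplant groups, 2 in each comparison with naive libraries). Bmpr1b, Ahsp and Cldn5 matched no row. Nrp1, Lrrc32, Foxp3, Ctla4, Pmepa1 and Ldlrad4, among others, stand on more than 1 list. The design text calls the libraries independent biological replicates.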

Additional observations from a re-analysis of the deposited data

How the results depend on the processing

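Of 480 alternative values of the members' log2 fold changes, 466 kept their direction and side of the threshold, 5 lost and 7 gained a call, and 2 reversed. The reversed values were Smad3 (0.0142 without allogeneic library 1, over a range of -0.1505 to 0.0142 when each library was left out) and Smad4 (0.0104 without syngeneic library 1, range -0.1106 to 0.0104), both between the transplant groups and neither called. Leaving out 1 library in turn gave 5 to 6 members called between allogeneic and syngeneic libraries (1 to 2 higher, 3 to 4 lower), 8 to 9 between allogeneic and naive (1 to 2 higher, 7 lower) and 8 to 9 between syngeneic and naive libraries (1 higher, 7 to 8 lower). Between the transplant groups, Tgfbr3, Smad7 and Smad2 were called in every alternative run. All genes called ranged over 6930 to 9123, 9881 to 11802 and 6347 to 9019 in the same order. The log2 difference of the Tgfbr2 to Tgfbr1 ratio between the transplant groups ranged from -0.0419 to 0.2194, reversing without syngeneic library 2 and without allogeneic library 2 (-0.0072). Same-numbered libraries of different groups correlated at -0.12 to 0.26 in their deviations from the group means, and not every library correlated best with its own number, so the numbers were not taken to pair them. With the replicate block, 2 members were higher in allogeneic than in naive libraries in place of 1, the addition being Tgfb1, and no other member's call changed. Other genes named by rule were followed only in the comparison that picked them, as called genes with the largest changes of their list. There 746 of 752 alternative values kept their call, and the 6 lost were those of Pard6a between syngeneic and naive libraries. That choice favours stable calls, and calls in other comparisons or of genes not picked by the rule are not covered. Of 672 counts of called genes per list, 19 moved by over 1.5 times. The lowest count of a member in a library was 553.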
